A study of Mus musculus with 12 samples.

Results

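The glutathione and antioxidant enzymes were followed in hearts and kidneys of PAI-1 knockout and wildtype mice. These genes code for the enzymes that make glutathione, the glutathione S-transferases and glutathione peroxidases that use it, the peroxiredoxins and the thioredoxin system, the superoxide dismutases, catalase, the quinone reductase Nqo1 and the metallothioneins Mt1 and Mt2. Members were taken by gene symbol alone, as every symbol of these families in the array annotation without Gstz1, together with Cat, Gclc, Gclm, Gsr, Gss and Nqo1. This gave 61 genes with 107 probes, of 19057 genes that the annotation names. A gene counted as measured where a probe of it was detected in any array, at a detection p-value of less than 0.01, which held for 52 members with 84 probes. No probe had the name Gsr in the annotation used, and Gsr is not analysed here. No array detected Gpx2, Gpx5, Gstm3, Gstt4, Txndc2, Txndc8, Txndc16, Txndc17 or Txnl1.

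RNA of whole organs from mice of the C57BL/6 strain, all 12 months of age, was hybridised to Illumina mouse bead arrays. The groups were PAI-1 knockout hearts (KO/HT), wildtype hearts (WT/HT), PAI-1 knockout kidneys (KO/KID) and wildtype kidneys (WT/KID), with 3 arrays in each. The knockout is global, not limited to a tissue or cell type.

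Superoxide dismutases turn superoxide into hydrogen peroxide. Catalase, the glutathione peroxidases and the peroxiredoxins remove the peroxide, the glutathione peroxidases with electrons from glutathione and most peroxiredoxins with electrons from thioredoxin. Glutathione is a tripeptide made by glutamate-cysteine ligase (Gclc and its partner Gclm) and then by glutathione synthetase (Gss), and glutathione S-transferases attach it to reactive compounds. The kidney is known for a high turnover of glutathione in its proximal tubule and for releasing Gpx3 into plasma, and heart muscle for its dense mitochondria.

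The organ labels fitted the tissue. All 7 measured cardiomyocyte markers were higher in hearts and all 8 proximal tubule markers were lower in hearts, in both genotypes. The labels state that the organs of each genotype came from 3 mice. Transcripts of the sex chromosomes do not let same-numbered hearts and kidneys be the same animals in wildtype mice or in knockout replicates 2 and 3. The 5 hearts other than KO/HT replicate 1 had detectable Xist, made only where an X chromosome is silenced, and no kidney did, while Eif2s3y of the Y chromosome was detected in KO/HT replicate 1 and all 6 kidneys. In wildtype mice, organ and sex therefore cannot be told apart. Xist was detected in 2 knockout and 3 wildtype hearts, and Eif2s3y in 1 knockout heart and no wildtype heart. Sex was thus not balanced between the genotypes in hearts, which also touches the interaction. The knockout hearts were the least alike, with a correlation of 0.986 between replicates 1 and 3 over measured probes, against at least 0.993 within each other group. From 14281 to 16080 probes were detected per array.

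Between organs, most members differed. In knockout mice, 17 members were higher and 26 lower in hearts than in kidneys at an adjusted p under 0.05 in limma, with the adjustment made over all measured probes. The background was 35.4% of all 11244 measured genes higher and 33% lower. In wildtype mice, 17 members were higher and 27 lower in hearts, against 36.1% and 33.9% of all genes. The share of members lower in hearts was thus 50% in knockout and 51.9% in wildtype mice, and the share higher was 32.7% in each. Gclc, Gpx6, Gstp3, Txndc9 and Txndc11 were detected in no heart and passed the detection filter through kidneys alone, so they could hardly come out higher in hearts. The background also holds genes detected in only one organ, and their share was not counted. The median size of the difference was 0.64 on the log2 scale in knockout and 0.71 in wildtype mice, against 0.35 and 0.37 over all genes. More than 2-fold differences were found for 38.5% of members in each genotype, against 21% and 21.9% of all genes. In both genotypes 39 members were called with the same sign, 16 higher and 23 lower in hearts, and none with opposite signs. When arrays were only centred on their medians in place of quantile normalization, 11 members were higher and 32 lower in knockout hearts, and 12 were higher and 31 lower in wildtype hearts. With KO/HT replicate 1 as the only knockout heart, so that all arrays compared carried Eif2s3y, 16 members were higher and 26 lower than in knockout kidneys. That fit takes the lone heart to vary like the arrays of the other groups, and it leaves the wildtype comparison, whose hearts differ from its kidneys in these transcripts, as it is. These are levels in whole organs, where fewer cells of a type and less RNA per cell cannot be told apart.

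**Figure D1:**
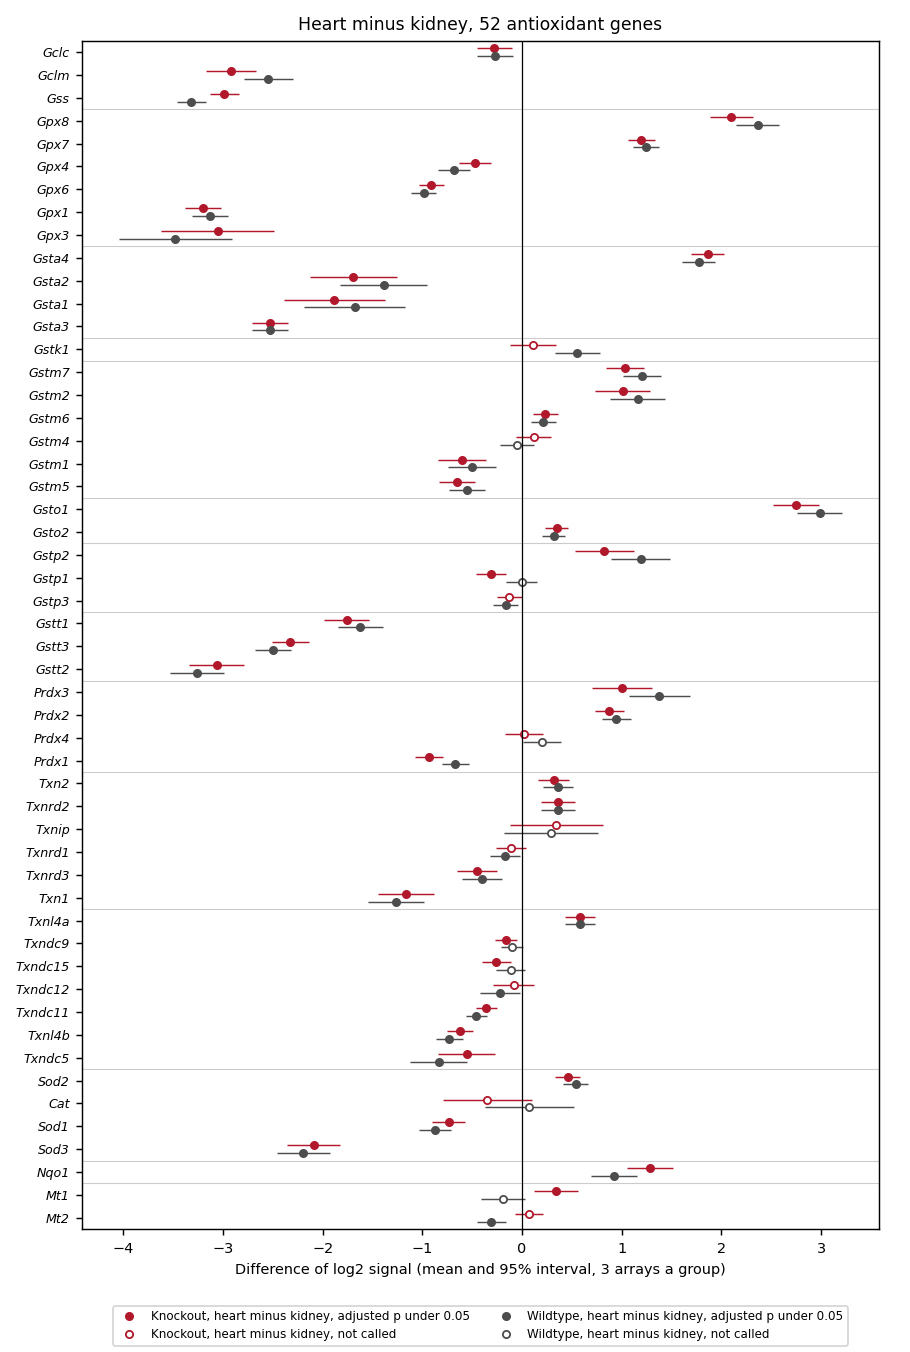
Difference of the mean log2 signal, heart minus kidney, for each of the 52 measured antioxidant genes in knockout (red) and wildtype (grey) mice, with 95% intervals from limma. Filled points have an adjusted p under 0.05, lines part the families, and points left of 0 are lower in hearts, as for Gss at -2.99 in knockout and -3.32 in wildtype mice.

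The 3 measured genes of glutathione synthesis were all lower in hearts. Gss, the enzyme of the last step, was at 7.07, 7.13 and 7.09 log2 in knockout hearts against 9.98, 10.11 and 10.16 log2 in knockout kidneys. Wildtype levels of Gss were 6.82, 7.005 and 6.98 log2 in hearts against 10.18, 10.33 and 10.27 log2 in kidneys. Every heart lay far under every kidney, with a difference of -2.99 ± 0.07 (SE, n = 3) in knockout and -3.32 ± 0.07 in wildtype mice (limma adjusted p = 7.26e-13 and 2.62e-13). These values are of the probe used for the gene. Over the 4 measured Gss probes, the difference ran from -2.99 to -0.10 in knockout mice, with 3 called. In wildtype mice it ran from -3.32 to -0.17, with 4 called. Gclm, the modifier subunit of glutamate-cysteine ligase, was at 7.91, 8.05 and 8.01 log2 in knockout hearts against 10.70, 11.17 and 10.85 log2 in knockout kidneys. Wildtype levels of Gclm were 8.15, 8.08 and 8.09 log2 in hearts against 10.50, 10.58 and 10.87 log2 in kidneys. Gclm was thus 7.56-fold lower in knockout and 5.84-fold lower in wildtype hearts, again without overlap. Gclc, the catalytic subunit, was at 6.49, 6.65 and 6.52 log2 in knockout hearts against 6.76, 6.90 and 6.84 log2 in knockout kidneys. Wildtype levels of Gclc were 6.55, 6.53 and 6.50 log2 in hearts against 6.79, 6.63 and 6.98 log2 in kidneys. It was not detected in any heart and was detected in 5 of 6 kidneys, close to the detection limit. A fold against a group without detection is given as a bound, with the dim arrays set no lower than their weakest detected signal, and Gclc was at least 1.11-fold lower in knockout hearts and at least 1.06-fold lower in wildtype hearts.

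Promoters of the members, as RefSeq gives them for GRCm38.p6 from 250 bases before to 50 bases after each start, were searched on both strands for the antioxidant response element core TGACNNNGC. A promoter was found for 47 of the 52 measured members, and 10 of them (21.3%) had a match, against 14% of all genes in the table. The matching members were Gclm, Gsta3, Gstm5, Gstm7, Mt2, Prdx1, Sod1, Txndc11, Txndc5 and Txnrd1. Of these 10, 1 was called higher and 7 lower in knockout hearts than in knockout kidneys, and 1 was higher and 9 lower in wildtype hearts than in wildtype kidneys. Over all 52 measured members 26 and 27 were lower, and over all genes 33% and 33.9%, and nothing particular to the matching members was tested. A match describes the letters and no site of binding. Stretches before the start of Gclm (chr3:122245407-122245486, plus strand), Gsta3 (chr1:21240435-21240564, plus strand) and Prdx1 (chr4:116685449-116685598, plus strand) are shown because these members have a match and were lower in hearts in both genotypes. The match is in capitals, on the forward strand in Gsta3 and on the reverse strand in Gclm and Prdx1.
Gclm: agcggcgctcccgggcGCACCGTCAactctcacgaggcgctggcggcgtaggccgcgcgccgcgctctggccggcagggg
Gsta3: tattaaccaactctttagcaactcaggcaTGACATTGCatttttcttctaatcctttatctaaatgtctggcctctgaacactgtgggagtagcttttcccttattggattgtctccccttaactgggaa
Prdx1: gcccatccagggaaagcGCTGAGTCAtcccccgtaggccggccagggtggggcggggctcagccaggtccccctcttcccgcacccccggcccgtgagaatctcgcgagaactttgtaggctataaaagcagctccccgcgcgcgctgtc

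Of the 6 measured glutathione peroxidases, 4 were lower and 2 higher in hearts, in both genotypes. Gpx1, the cytosolic selenoenzyme, was at 11.59, 11.79 and 11.75 log2 in knockout hearts against 14.95, 14.85 and 14.93 log2 in knockout kidneys. Wildtype levels of Gpx1 were 11.68, 11.45 and 11.80 log2 in hearts against 14.79, 14.74 and 14.79 log2 in kidneys. It was 9.20-fold lower in knockout and 8.76-fold lower in wildtype hearts (limma adjusted p = 2.87e-12 and 3.58e-12). Gpx3, the secreted enzyme of plasma, was at 11.74, 11.60 and 12.77 log2 in knockout hearts against 15.15, 14.98 and 15.15 log2 in knockout kidneys. Wildtype levels of Gpx3 were 11.13, 11.84 and 11.88 log2 in hearts against 15.10, 15.10 and 15.10 log2 in kidneys. Among all probes of an array, Gpx3 ranked 1 to 6 from the top in kidneys, where quantile normalization gives arrays the same values, so the spread among kidneys cannot be read there. Among hearts, KO/HT replicate 3 was the highest and WT/HT replicate 1 the lowest. The summed level of the 3 measured atrial markers was also highest in KO/HT replicate 3, at 14.76 log2, and lowest in WT/HT replicate 1, at 11.49 log2, against 13.08 to 13.89 log2 in the other 4 hearts. That sum mostly reflects Nppa, with means of 13.88 log2 in knockout hearts and 12.5 log2 in wildtype hearts. Myl7, of the same list, was detected in 1 wildtype heart and in no knockout heart. The part of these markers in the Gpx3 values was not tested.

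Gpx4, which reduces lipid peroxides in membranes, was 1.39-fold lower in knockout and 1.61-fold lower in wildtype hearts. Of the 3 measured Gpx4 probes, 1 was called in knockout and 2 in wildtype mice. ILMN_3100812, detected in every array, had means of 12.17 log2 in knockout hearts and 12.29 log2 in knockout kidneys. Its wildtype means were 12.16 log2 in hearts and 12.44 log2 in kidneys. Gpx6 was at 6.52, 6.45 and 6.48 log2 in knockout hearts against 7.41, 7.39 and 7.38 log2 in knockout kidneys. Wildtype levels of Gpx6 were 6.59, 6.56 and 6.50 log2 in hearts against 7.64, 7.43 and 7.55 log2 in kidneys. It was not detected in any heart and was detected in every kidney, at least 1.63-fold lower in knockout hearts and at least 1.77-fold lower in wildtype hearts. The other members of this family ran the other way. Gpx8, an enzyme of the endoplasmic reticulum, was at 9.67, 9.79 and 9.88 log2 in knockout hearts against 7.55, 7.82 and 7.67 log2 in knockout kidneys. Wildtype levels of Gpx8 were 9.67, 9.75 and 9.91 log2 in hearts against 7.27, 7.36 and 7.61 log2 in kidneys. This made it 4.28-fold higher in knockout and 5.15-fold higher in wildtype hearts. Gpx7, also of the endoplasmic reticulum, was at 7.91, 7.89 and 8.08 log2 in knockout hearts against 6.71, 6.80 and 6.77 log2 in knockout kidneys. Wildtype levels of Gpx7 were 8.03, 7.93 and 8.03 log2 in hearts against 6.78, 6.70 and 6.78 log2 in kidneys. Every heart lay above every kidney, and Gpx7 was 2.29-fold higher in knockout and 2.37-fold higher in wildtype hearts (limma adjusted p = 2.43e-09 and 1.65e-09).

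**Figure D2:**
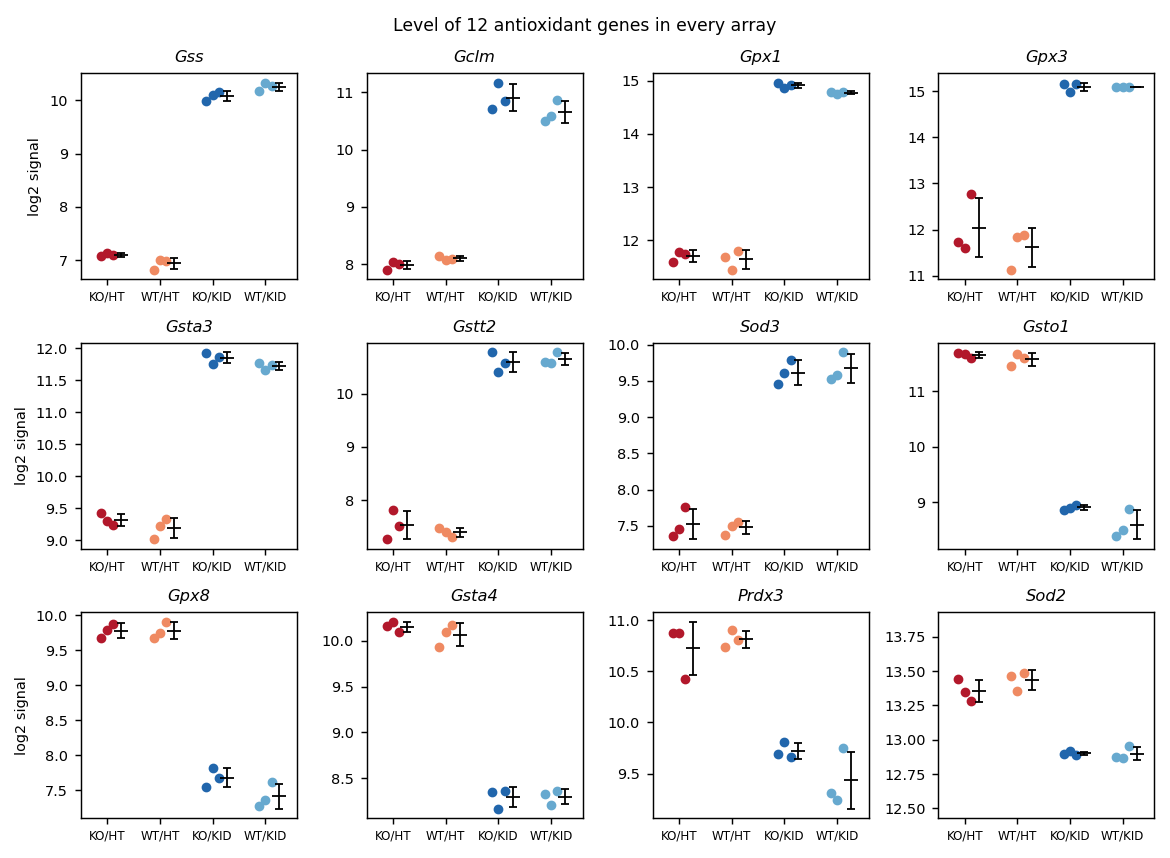
Normalized log2 signal (vertical axis, 1 scale per gene) of 12 antioxidant genes in every array of the groups KO/HT, WT/HT, KO/KID and WT/KID, with the group mean and SD as bars (n = 3). The first 7 genes are lower in every heart than in every kidney and the last 5 are higher, and the Gpx3 panel shows KO/HT replicate 3 above the other hearts at 12.77.

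The glutathione S-transferases were called in both directions. All 3 measured members of the theta class were lower in hearts, and they lie on chromosome 10 between positions 75774117 and 75837419 (GRCm38.p6), with the undetected Gstt4 among them. Gstt2 was at 7.27, 7.80 and 7.52 log2 in knockout hearts against 10.79, 10.41 and 10.58 log2 in knockout kidneys. Wildtype levels of Gstt2 were 7.47, 7.40 and 7.30 log2 in hearts against 10.60, 10.58 and 10.79 log2 in kidneys. It was 8.36-fold lower in knockout and 9.60-fold lower in wildtype hearts (limma adjusted p = 3.09e-10 and 1.6e-10). Gstt3 was at 7.61, 7.92 and 7.87 log2 in knockout hearts against 10.25, 10.04 and 10.08 log2 in knockout kidneys. Wildtype levels of Gstt3 were 7.78, 7.70 and 7.74 log2 in hearts against 10.27, 10.15 and 10.30 log2 in kidneys. Its difference was -2.32 in knockout and -2.50 in wildtype mice, without overlap. Gstt1 was at 8.21, 8.38 and 8.14 log2 in knockout hearts against 9.87, 10.15 and 9.98 log2 in knockout kidneys. Wildtype levels of Gstt1 were 8.43, 8.40 and 8.06 log2 in hearts against 9.86, 9.95 and 9.96 log2 in kidneys. Its difference was -1.76 in knockout and -1.63 in wildtype mice, also without overlap. Both omega genes, neighbours on chromosome 19, were higher in hearts. Gsto1, which also reduces dehydroascorbate, was at 11.69, 11.67 and 11.60 log2 in knockout hearts against 8.87, 8.89 and 8.96 log2 in knockout kidneys. Wildtype levels of Gsto1 were 11.45, 11.67 and 11.60 log2 in hearts against 8.40, 8.49 and 8.89 log2 in kidneys. This made Gsto1 6.72-fold higher in knockout and 7.91-fold higher in wildtype hearts. Gsto2 was at 7.07, 7.14 and 7.08 log2 in knockout hearts against 6.80, 6.66 and 6.79 log2 in knockout kidneys. Wildtype levels of Gsto2 were 7.12, 7.05 and 7.05 log2 in hearts against 6.78, 6.76 and 6.72 log2 in kidneys. Its difference was smaller, 0.35 in knockout and 0.32 in wildtype mice.

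In the alpha class, Gsta4 was higher in hearts and the other 3 members were lower. Gsta3 was at 9.42, 9.30 and 9.23 log2 in knockout hearts against 11.93, 11.76 and 11.87 log2 in knockout kidneys. Wildtype levels of Gsta3 were 9.02, 9.22 and 9.33 log2 in hearts against 11.77, 11.65 and 11.74 log2 in kidneys. Its difference was -2.53 ± 0.08 (SE, n = 3) in knockout and -2.53 ± 0.08 in wildtype mice. Gsta4, the form that conjugates the lipid aldehyde hydroxynonenal, was at 10.16, 10.20 and 10.10 log2 in knockout hearts against 8.34, 8.17 and 8.36 log2 in knockout kidneys. Wildtype levels of Gsta4 were 9.93, 10.09 and 10.18 log2 in hearts against 8.33, 8.20 and 8.36 log2 in kidneys. It was 3.64-fold higher in knockout and 3.41-fold higher in wildtype hearts, and it lies near Gsta1 on chromosome 9 (Gsta4 at 78191966 to 78209349, Gsta1 at 78230669 to 78242683).

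The direction of Gsta1 depended on the probe. The probe used for the gene, ILMN_2657636, was at 7.67, 7.62 and 7.30 log2 in knockout hearts against 9.44, 9.41 and 9.40 log2 in knockout kidneys. Wildtype levels of this probe were 7.27, 7.32 and 7.39 log2 in hearts against 8.40, 8.93 and 9.69 log2 in kidneys. The other probes pointed the other way. ILMN_2979237 was at 8.40, 8.46 and 8.07 log2 in knockout hearts against 6.69, 6.61 and 6.63 log2 in knockout kidneys, and at 7.92, 7.86 and 8.47 log2 in wildtype hearts against 6.68, 6.63 and 6.58 log2 in wildtype kidneys. ILMN_1231997 was at 7.71, 7.69 and 7.76 log2 in knockout hearts against 6.57, 6.53 and 6.58 log2 in knockout kidneys, and at 7.14, 7.26 and 7.79 log2 in wildtype hearts against 6.52, 6.47 and 6.56 log2 in wildtype kidneys. The last probe was not detected in any kidney and was at least 2.10-fold higher in knockout hearts and at least 1.65-fold higher in wildtype hearts. The heart minus kidney difference was -1.88 in knockout and -1.68 in wildtype mice for the first probe, and 1.67 and 1.45 for the second, which 1 of 3 kidneys of each genotype detected. All 3 probes were called in both genotypes. Gsta2, a close copy of Gsta1 measured by 1 probe, was at 7.80, 7.69 and 7.72 log2 in knockout hearts against 9.57, 9.25 and 9.45 log2 in knockout kidneys. Wildtype levels of Gsta2 were 7.27, 7.26 and 7.71 log2 in hearts against 8.44, 8.60 and 9.36 log2 in kidneys. Its difference was -1.69 in knockout and -1.39 in wildtype mice. With probes that disagree, the organ direction of Gsta1 is uncertain. Close copies can share signal on an array, which was not tested here. Among the 21 members with several measured probes, Gsta1 was the only one with called probes of opposite sign between organs.

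**Figure D3:**
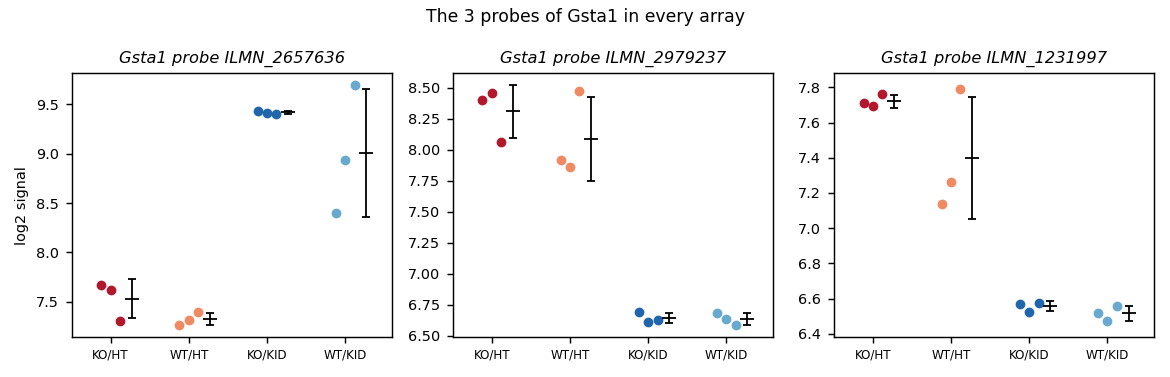
Normalized log2 signal (vertical axis, 1 scale per probe) of the 3 Gsta1 probes in every array, with the group mean and SD (n = 3). The probe at the left is lower in hearts than in kidneys and the other probes are higher, at 8.07 or more in knockout hearts against 6.69 or less in knockout kidneys for ILMN_2979237.

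In the mu class, a cluster on chromosome 3, 3 of the 6 measured members were higher in hearts and 2 lower, in both genotypes. Gstm7 was at 8.12, 7.99 and 7.74 log2 in knockout hearts against 6.97, 6.83 and 6.95 log2 in knockout kidneys. Wildtype levels of Gstm7 were 7.97, 8.09 and 8.05 log2 in hearts against 6.92, 6.77 and 6.82 log2 in kidneys. Gstm7 was 2.05-fold higher in knockout and 2.30-fold higher in wildtype hearts. Gstm2 was at 12.06, 12.51 and 12.39 log2 in knockout hearts against 11.54, 11.05 and 11.35 log2 in knockout kidneys. Wildtype levels of Gstm2 were 12.45, 12.31 and 12.39 log2 in hearts against 11.21, 11.18 and 11.29 log2 in kidneys. Gstm2 was 2.01-fold higher in knockout and 2.23-fold higher in wildtype hearts, and Gstm6 differed by 0.23 in knockout and 0.21 in wildtype mice. Gstm5 ran the other way, at 10.21, 10.23 and 10.21 log2 in knockout hearts against 10.81, 10.89 and 10.92 log2 in knockout kidneys. Wildtype levels of Gstm5 were 10.34, 10.23 and 10.57 log2 in hearts against 10.84, 10.88 and 11.06 log2 in kidneys. Gstm1 did too, at 10.96, 10.96 and 10.82 log2 in knockout hearts against 11.67, 11.22 and 11.67 log2 in knockout kidneys. Wildtype levels of Gstm1 were 10.94, 10.99 and 11.20 log2 in hearts against 11.57, 11.60 and 11.46 log2 in kidneys. The difference was -0.66 in knockout and -0.55 in wildtype mice for Gstm5 and -0.60 in knockout and -0.50 in wildtype mice for Gstm1, while Gstm4 was not called (0.11 in knockout and -0.05 in wildtype mice).

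The pi and kappa genes were called in both directions. Gstp2 was at 8.55, 8.94 and 8.31 log2 in knockout hearts against 7.70, 7.87 and 7.74 log2 in knockout kidneys. Wildtype levels of Gstp2 were 8.68, 9.05 and 8.73 log2 in hearts against 7.68, 7.65 and 7.56 log2 in kidneys. It was 1.77-fold higher in knockout and 2.28-fold higher in wildtype hearts. Gstp1 was at 11.28, 11.44 and 11.23 log2 in knockout hearts against 11.60, 11.69 and 11.59 log2 in knockout kidneys. Wildtype levels of Gstp1 were 11.44, 11.54 and 11.32 log2 in hearts against 11.42, 11.40 and 11.49 log2 in kidneys. Gstp1 was called lower in knockout hearts (-0.31) and was not called in wildtype mice. Gstp3 was at 6.54, 6.62 and 6.54 log2 in knockout hearts against 6.72, 6.73 and 6.63 log2 in knockout kidneys. Wildtype levels of Gstp3 were 6.55, 6.55 and 6.55 log2 in hearts against 6.72, 6.82 and 6.61 log2 in kidneys. No heart and only 2 of 3 kidneys of each genotype detected Gstp3, so its size of difference has no more than a bound of about 1-fold. The test called it lower in wildtype hearts and not in knockout hearts, and the interaction was not called. Gstk1, of mitochondria and peroxisomes, was at 11.66, 11.74 and 11.30 log2 in knockout hearts against 11.53, 11.42 and 11.42 log2 in knockout kidneys. Wildtype levels of Gstk1 were 11.85, 11.78 and 11.99 log2 in hearts against 11.42, 11.34 and 11.20 log2 in kidneys. It was higher in wildtype hearts (0.56, limma adjusted p = 0.000438) and was not called in knockout mice, at 0.11, or -0.36 with arrays only centred on their medians.

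Peroxiredoxins, thioredoxins and superoxide dismutases have separate forms for separate compartments, and here the measured mitochondrial forms were higher in hearts and most other forms lower. This grouping was chosen after the values were seen. Prdx3, the mitochondrial peroxiredoxin, was at 10.88, 10.87 and 10.42 log2 in knockout hearts against 9.69, 9.81 and 9.66 log2 in knockout kidneys. Wildtype levels of Prdx3 were 10.73, 10.90 and 10.80 log2 in hearts against 9.31, 9.24 and 9.75 log2 in kidneys. It was 2.00-fold higher in knockout and 2.60-fold higher in wildtype hearts. Sod2, the mitochondrial superoxide dismutase, was at 13.44, 13.34 and 13.28 log2 in knockout hearts against 12.89, 12.92 and 12.89 log2 in knockout kidneys. Wildtype levels of Sod2 were 13.47, 13.36 and 13.49 log2 in hearts against 12.88, 12.87 and 12.96 log2 in kidneys. Its differences were small, 0.46 in knockout and 0.54 in wildtype mice, but every heart lay above every kidney. Txn2, the mitochondrial thioredoxin, was at 9.83, 9.80 and 9.85 log2 in knockout hearts against 9.55, 9.46 and 9.52 log2 in knockout kidneys. Wildtype levels of Txn2 were 9.89, 9.88 and 9.999 log2 in hearts against 9.70, 9.59 and 9.40 log2 in kidneys. Txnrd2, its reductase, was at 9.31, 9.65 and 9.42 log2 in knockout hearts against 9.08, 9.05 and 9.16 log2 in knockout kidneys. Wildtype levels of Txnrd2 were 9.57, 9.54 and 9.63 log2 in hearts against 9.28, 9.23 and 9.16 log2 in kidneys. Both were called higher in hearts, Txn2 at 0.32 in knockout and 0.36 in wildtype mice and Txnrd2 at 0.36 in knockout and 0.36 in wildtype mice, but with arrays only centred on their medians the signs turned, to -0.29 for Txn2 and -0.24 for Txnrd2 in knockout and to -0.10 for each in wildtype mice.

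Outside mitochondria, Sod1, the cytosolic superoxide dismutase, was at 12.42, 12.31 and 12.12 log2 in knockout hearts against 13.03, 12.97 and 13.07 log2 in knockout kidneys. Wildtype levels of Sod1 were 12.39, 12.42 and 12.35 log2 in hearts against 13.28, 13.34 and 13.15 log2 in kidneys. Sod1 was 1.67-fold lower in knockout and 1.83-fold lower in wildtype hearts. Sod3, the extracellular form, was at 7.36, 7.46 and 7.76 log2 in knockout hearts against 9.45, 9.61 and 9.79 log2 in knockout kidneys. Wildtype levels of Sod3 were 7.38, 7.50 and 7.56 log2 in hearts against 9.53, 9.59 and 9.90 log2 in kidneys. Sod3 was 4.26-fold lower in knockout and 4.58-fold lower in wildtype hearts. Prdx1, mainly cytosolic, was at 12.74, 12.89 and 12.81 log2 in knockout hearts against 13.77, 13.68 and 13.79 log2 in knockout kidneys. Wildtype levels of Prdx1 were 13.05, 13.04 and 12.93 log2 in hearts against 13.72, 13.57 and 13.74 log2 in kidneys. Prdx1 was 1.91-fold lower in knockout and 1.59-fold lower in wildtype hearts. Txn1, the cytosolic thioredoxin, was at 8.05, 7.80 and 7.77 log2 in knockout hearts against 9.20, 8.84 and 9.07 log2 in knockout kidneys. Wildtype levels of Txn1 were 7.89, 7.86 and 8.13 log2 in hearts against 9.42, 8.95 and 9.30 log2 in kidneys. Txn1 was 2.24-fold lower in knockout and 2.40-fold lower in wildtype hearts, without overlap. Prdx2, a cytosolic form also abundant in red blood cells, was at 12.99, 13.18 and 13.05 log2 in knockout hearts against 12.23, 12.27 and 12.10 log2 in knockout kidneys. Wildtype levels of Prdx2 were 13.07, 13.14 and 13.01 log2 in hearts against 12.14, 12.19 and 12.06 log2 in kidneys. Prdx2 ran the other way, 1.83-fold higher in knockout and 1.92-fold higher in wildtype hearts. The summed level of the 4 measured red blood cell markers was 14.65 to 15.66 log2 in knockout hearts against 14.52 to 15.03 log2 in knockout kidneys, and 14.46 to 15.40 log2 in wildtype hearts against 13.93 to 14.29 log2 in wildtype kidneys. Of these markers, Slc4a1 was called lower in hearts in both genotypes. Hba-a1 and Hbb-bt were called higher in wildtype hearts, and none was called higher in knockout hearts. The part of these markers in the Prdx2 values was not tested.

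Catalase, which breaks down hydrogen peroxide in peroxisomes, was not called between organs. Cat was at 9.74, 8.92 and 9.22 log2 in knockout hearts against 9.58, 9.89 and 9.46 log2 in knockout kidneys. Wildtype levels of Cat were 8.85, 9.13 and 9.39 log2 in hearts against 9.10, 8.76 and 9.29 log2 in kidneys. The groups overlapped, with differences of -0.35 in knockout and 0.07 in wildtype mice. Its other probe was called lower in hearts, at -0.33 in knockout and -0.36 in wildtype mice, with 1 of 3 hearts detected in each genotype. Prdx4, the form of the endoplasmic reticulum, was at 10.37, 10.67 and 10.68 log2 in knockout hearts against 10.47, 10.61 and 10.59 log2 in knockout kidneys. Wildtype levels of Prdx4 were 10.65, 10.59 and 10.49 log2 in hearts against 10.29, 10.35 and 10.50 log2 in kidneys. Neither Prdx4 nor Txnip, the inhibitor of thioredoxin, was called in either genotype. Txnrd3, a reductase known from testis, was at 7.60, 7.59 and 7.81 log2 in knockout hearts against 8.10, 7.95 and 8.31 log2 in knockout kidneys. Wildtype levels of Txnrd3 were 7.63, 7.56 and 7.60 log2 in hearts against 8.08, 8.04 and 7.86 log2 in kidneys. Its difference was -0.45 in knockout and -0.40 in wildtype mice, and that of Txnrd1, the cytosolic reductase, -0.11 in knockout and -0.18 in wildtype mice, the last called in wildtype mice.

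Of the 7 measured thioredoxin-like genes, which share a fold and not always an activity, 5 were lower in knockout hearts and 4 in wildtype hearts, and 1 was higher in each. Txnl4a, a splicing factor, was at 9.97, 10.25 and 10.11 log2 in knockout hearts against 9.58, 9.46 and 9.55 log2 in knockout kidneys. Wildtype levels of Txnl4a were 10.16, 10.17 and 10.21 log2 in hearts against 9.63, 9.55 and 9.64 log2 in kidneys. Its difference was 0.58 in knockout and 0.58 in wildtype mice, but -0.01 in knockout mice with arrays only centred on their medians. Of the 4 measured Txnl4a probes, 3 were called in each genotype, and ILMN_2634749 differed by -0.08 in knockout and 0.03 in wildtype mice. Txnl4b, its relative, was at 7.38, 7.61 and 7.54 log2 in knockout hearts against 8.15, 8.13 and 8.12 log2 in knockout kidneys. Wildtype levels of Txnl4b were 7.45, 7.57 and 7.51 log2 in hearts against 8.26, 8.27 and 8.21 log2 in kidneys. It was lower in every heart (-0.62 in knockout and -0.73 in wildtype mice). Txndc5, a protein disulfide isomerase of the endoplasmic reticulum, was at 8.71, 8.94 and 9.28 log2 in knockout hearts against 9.53, 9.31 and 9.75 log2 in knockout kidneys. Wildtype levels of Txndc5 were 8.84, 8.95 and 8.82 log2 in hearts against 9.64, 9.74 and 9.73 log2 in kidneys. It was 1.47-fold lower in knockout and 1.78-fold lower in wildtype hearts. Txndc11 was at 6.53, 6.54 and 6.54 log2 in knockout hearts against 6.93, 6.86 and 6.90 log2 in knockout kidneys. Wildtype levels of Txndc11 were 6.51, 6.64 and 6.57 log2 in hearts against 7.01, 7.09 and 6.997 log2 in kidneys. No heart detected it, and it was at least 1.16-fold lower in knockout hearts and at least 1.25-fold lower in wildtype hearts.

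Nqo1, a quinone reductase and a widely used readout of the transcription factor NRF2, was at 8.82, 8.91 and 8.72 log2 in knockout hearts against 7.46, 7.75 and 7.38 log2 in knockout kidneys. Wildtype levels of Nqo1 were 8.40, 8.36 and 8.60 log2 in hearts against 7.53, 7.39 and 7.67 log2 in kidneys. It was 2.44-fold higher in knockout and 1.89-fold higher in wildtype hearts, opposite to Gclm, another known NRF2 target. Among 19 further NRF2 regulators and known targets, 6 were higher and 5 lower in knockout hearts, and 5 were higher and 6 lower in wildtype hearts. Over all measured genes, 35.4% were higher and 33% lower in knockout hearts, and 36.1% and 33.9% in wildtype hearts. Nfe2l1, a factor related to NRF2, differed by 1.39 in knockout and 1.35 in wildtype mice, and Ftl1, the ferritin light chain, by -1.88 in knockout and -2.29 in wildtype mice.

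Surrounding genes of glutathione turnover were mostly lower in hearts. The background for the counts that follow was 35.4% of all measured genes higher and 33% lower in knockout hearts, and 36.1% and 33.9% in wildtype hearts. Of 13 measured genes of turnover and transport outside the members, 10 were lower and 1, Chac1, was higher in both genotypes. Slc1a1, a carrier of glutamate and cysteine, differed by -4.50 in knockout and -4.30 in wildtype mice. Cbs, which leads homocysteine toward cysteine, was not detected in any heart and was at least 8.31-fold lower in knockout hearts and at least 8.01-fold lower in wildtype hearts. Of 13 genes of selenoprotein synthesis and selenium transport, 8 were lower and 4 higher in both genotypes, and of 11 sources of hydrogen peroxide and superoxide, 8 were lower and 3 higher. Dao, the peroxide-forming D-amino acid oxidase of the proximal tubule, was also undetected in every heart and was at least 45.7-fold lower in knockout hearts and at least 51.3-fold lower in wildtype hearts. Among 16 other glutathione enzymes, 3 were higher and 7 lower in knockout hearts and 5 were higher and 7 lower in wildtype hearts. Of 11 genes of NADPH supply, 5 were higher and 5 lower in knockout hearts and 3 were higher and 5 lower in wildtype hearts. Idh2, the mitochondrial isocitrate dehydrogenase that makes NADPH, differed by 1.72 in knockout and 1.76 in wildtype mice. The proximal tubule markers were also lower in hearts by the same test, and their part in the values of these lists was not tested. Lrp2 is both a proximal tubule marker and a gene of the selenium list.

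Between genotypes, no antioxidant gene passed the test in either organ. In hearts, 0 of 52 members were called in limma, against 0.08% of all genes, and 6 members had an unadjusted p under 0.05 (8.34% of all genes did). In kidneys, 0 of 52 were called, against 0.32% of all genes, and 12 had an unadjusted p under 0.05 (10.3% of all genes did). The median size of the knockout minus wildtype difference was 0.09 log2 in hearts and 0.10 log2 in kidneys, against 0.06 over all genes in each organ. No member differed by 2-fold, and the differences ran from -0.31 to 0.42 log2 in hearts and from -0.46 to 0.62 log2 in kidneys. With arrays only centred on their medians, which moved the median of all genes in kidneys to 0.13 log2, 7 members were called higher in knockout kidneys, namely Cat, Gclm, Gpx8, Gsta2, Gsto1, Gstp1 and Prdx3. The share of all genes called under that setting was not counted.

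**Figure D4:**
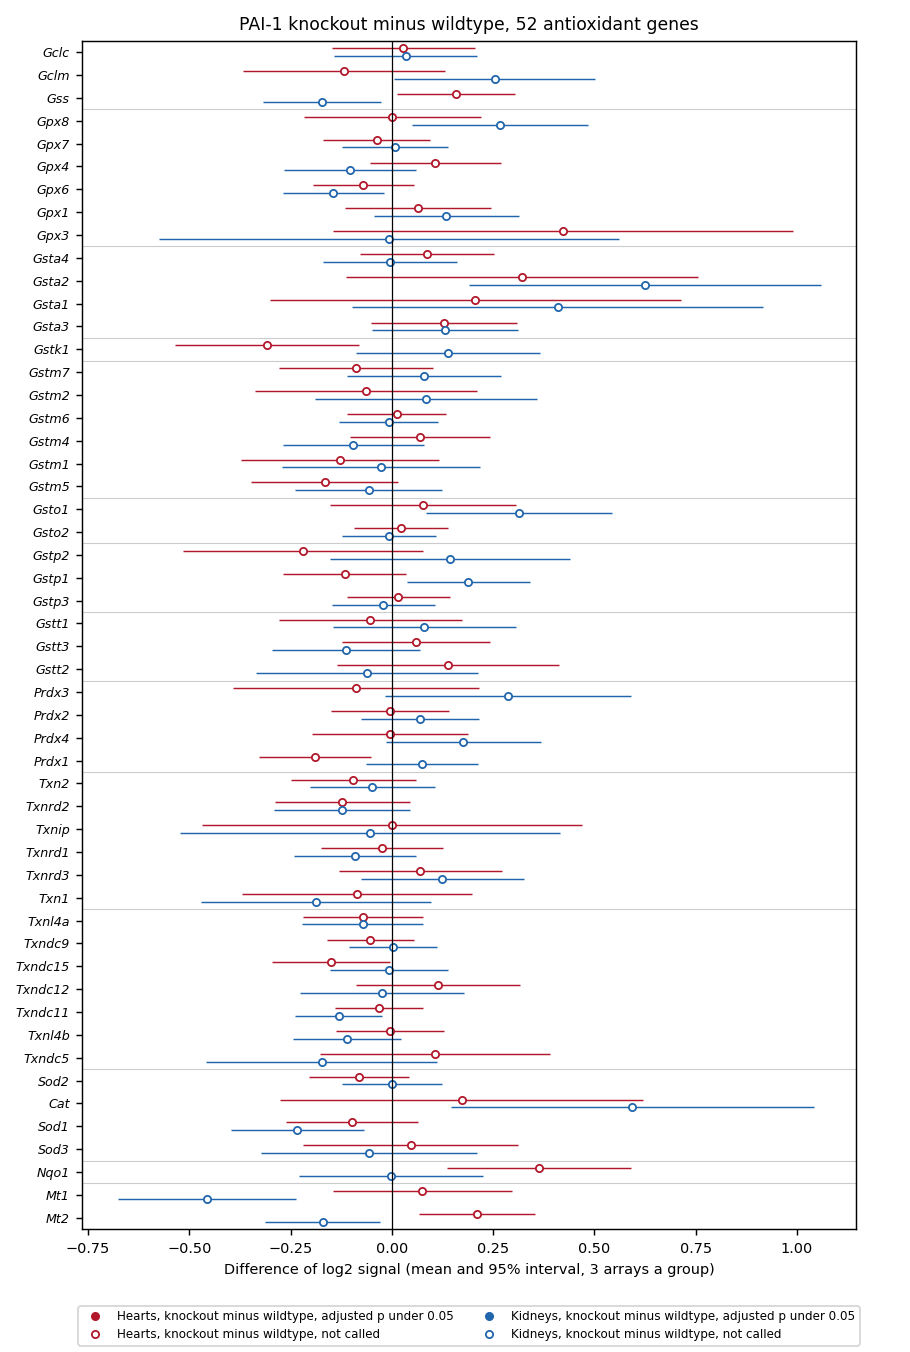
Difference of the mean log2 signal, knockout minus wildtype, for each of the 52 measured antioxidant genes in hearts (red) and kidneys (blue), with 95% intervals from limma. Open points were not called, which holds for every gene here, and the outermost points are Gsta2 at 0.62 and Mt1 at -0.46, both in kidneys.

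The 5 members with the smallest unadjusted p in hearts were Nqo1, Mt2, Prdx1, Gstk1 and Gss. Sex was not balanced between these hearts, as KO/HT replicate 1 alone had detectable Eif2s3y. Nqo1 was at 8.82, 8.91 and 8.72 log2 in knockout hearts against 8.40, 8.36 and 8.60 log2 in wildtype hearts, a difference of 0.36 (95% interval 0.14 to 0.59, limma adjusted p = 0.343). Every knockout heart lay above every wildtype heart, whereas the kidneys overlapped, at 7.46, 7.75 and 7.38 log2 in knockout kidneys against 7.53, 7.39 and 7.67 log2 in wildtype kidneys. Gstk1 was at 11.66, 11.74 and 11.30 log2 in knockout hearts against 11.85, 11.78 and 11.99 log2 in wildtype hearts (-0.31, limma adjusted p = 0.443), with KO/HT replicate 3 the lowest. Prdx1 was at 12.74, 12.89 and 12.81 log2 in knockout hearts against 13.05, 13.04 and 12.93 log2 in wildtype hearts (-0.19, limma adjusted p = 0.441). Gss was at 7.07, 7.13 and 7.09 log2 in knockout hearts against 6.82, 7.005 and 6.98 log2 in wildtype hearts (0.16, limma adjusted p = 0.57). Of the 4 measured Gss probes, 3 were higher in knockout hearts, and ILMN_1227649 differed by -0.08. On the probe used for each gene, the groups did not overlap in these genes or in Mt2, but all were picked for a small p and none was called. A small p makes a lack of overlap likely, and the share of all genes without overlap between genotypes was not counted in either organ.

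In kidneys the smallest adjusted p was that of Mt1, a zinc- and copper-binding metallothionein, which was at 13.05, 13.13 and 13.40 log2 in knockout kidneys against 13.70, 13.74 and 13.52 log2 in wildtype kidneys. The difference was -0.46 (95% interval -0.68 to -0.24, limma adjusted p = 0.0788), or 1.37-fold, and every knockout kidney lay under every wildtype kidney. Without KO/KID replicate 3 its limma adjusted p was 0.0416, and over all settings tried it lay between 0.0416 and 0.346. That array was the knockout kidney nearest the wildtype kidneys, so leaving it out widens the difference. Gsta2 was at 9.57, 9.25 and 9.45 log2 in knockout kidneys against 8.44, 8.60 and 9.36 log2 in wildtype kidneys (0.62, limma adjusted p = 0.258), with WT/KID replicate 3 inside the knockout range. Without that array, Gsta1, Gsta2 and Gsto1 were called higher in knockout kidneys. It was the highest wildtype kidney for each of these genes, so leaving it out widens their differences and the calls add no support. Gsto1 was at 8.87, 8.89 and 8.96 log2 in knockout kidneys against 8.40, 8.49 and 8.89 log2 in wildtype kidneys (0.31, limma adjusted p = 0.285), again with WT/KID replicate 3 the highest wildtype array.

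Sod1 was at 13.03, 12.97 and 13.07 log2 in knockout kidneys against 13.28, 13.34 and 13.15 log2 in wildtype kidneys (-0.23, limma adjusted p = 0.264), without overlap. Cat was at 9.58, 9.89 and 9.46 log2 in knockout kidneys against 9.10, 8.76 and 9.29 log2 in wildtype kidneys (0.59, limma adjusted p = 0.307), also without overlap, while its other probe differed by -0.03. Catalase is abundant in red blood cells, and the summed level of the 4 red blood cell markers was 14.52 to 15.03 log2 in knockout kidneys against 13.93 to 14.29 log2 in wildtype kidneys. Their part in the Cat values was not tested. No marker of that list was called between kidneys, and the farthest from 0 was Hbb-bt, a beta globin, at 0.78 (limma adjusted p = 0.229). A probe of Txnrd2 not used for the gene, ILMN_2550089, was at 7.67, 7.50 and 7.72 log2 in knockout kidneys against 7.96, 7.95 and 7.96 log2 in wildtype kidneys (-0.32, limma adjusted p = 0.0735), where the probe used differed by -0.12.

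**Figure D5:**
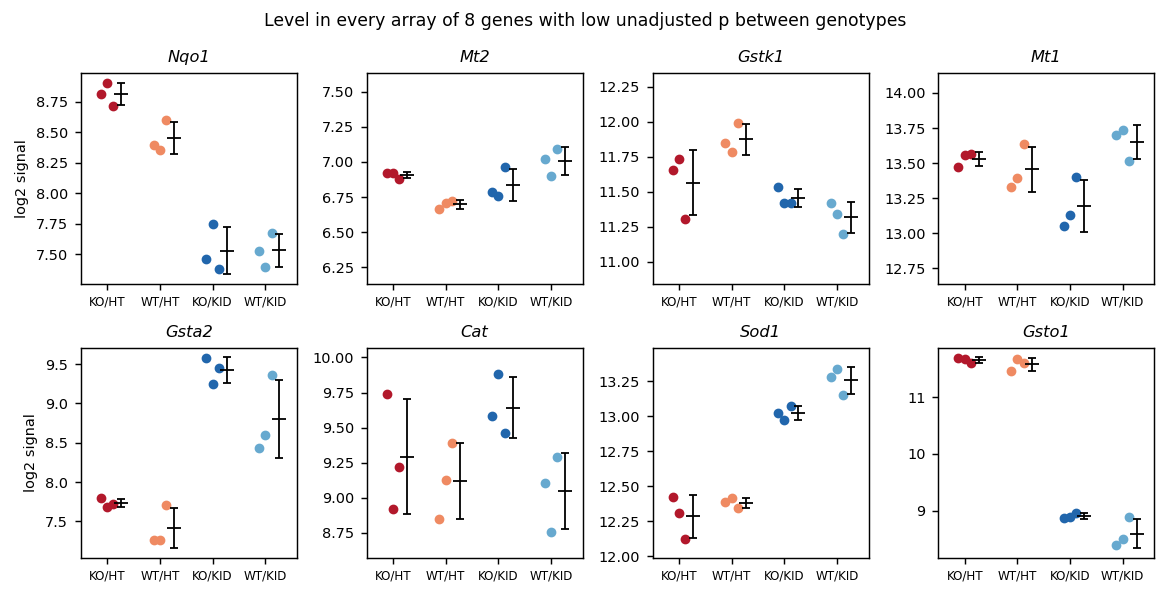
Normalized log2 signal (vertical axis, 1 scale per gene) in every array of 8 genes among those with the smallest unadjusted p between genotypes, with the group mean and SD (n = 3). Knockout hearts lie above wildtype hearts for Nqo1, and knockout kidneys lie under wildtype kidneys for Mt1 (13.05 to 13.40 against 13.52 to 13.74) and above them for Cat, with no gene called.

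Whether the genotype difference itself differed between hearts and kidneys was tested as an interaction. Of 52 members 0 were called, against 0.0445% of all genes, and 8 members had an unadjusted p under 0.05, while 9.01% of all genes did. The metallothioneins had the smallest p. Mt2 was at 6.92, 6.92 and 6.88 log2 in knockout hearts against 6.66, 6.71 and 6.72 log2 in wildtype hearts, and at 6.78, 6.76 and 6.97 log2 in knockout kidneys against 7.02, 6.90 and 7.09 log2 in wildtype kidneys. The knockout minus wildtype difference was 0.21 in hearts and -0.17 in kidneys, an interaction of 0.38 (limma adjusted p = 0.223), and Mt2 was close to the detection limit, being detected in 1 of 3 wildtype hearts. Mt1 was at 13.47, 13.55 and 13.57 log2 in knockout hearts against 13.33, 13.40 and 13.64 log2 in wildtype hearts, and its differences were 0.08 in hearts and -0.46 in kidneys, an interaction of 0.53 (limma adjusted p = 0.279). Gss followed with 0.16 in hearts and -0.17 in kidneys (limma adjusted p = 0.317). Of the 4 measured Gss probes, 3 had a positive interaction. The remaining probe, ILMN_1227649, was detected in every array and differed by -0.08 in hearts and 0.18 in kidneys, an interaction of -0.26. Gstp1, at -0.12 in hearts and 0.19 in kidneys, and Gstk1, at -0.31 and 0.14, had negative interactions (limma adjusted p = 0.385 and 0.401).

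Between organs, the metallothioneins were called in 1 genotype each. Mt1 was called higher in knockout hearts, at 0.34, and was at -0.20, not called, in wildtype mice. Mt2 was called lower in wildtype hearts, at -0.31, and was at 0.07, not called, in knockout mice, or -0.09 with arrays only centred on their medians. These genes lie next to each other on chromosome 8, Mt2 at 94172618 to 94173567 and Mt1 at 94178883 to 94180327 (GRCm38.p6). Their transcription is known to answer to zinc through the factor MTF1, which binds metal response elements. The cores TGCACNC and TGCGCNC were searched on both strands, with 4 matches in the Mt2 promoter and 3 in that of Mt1. The Mt1 promoter searched, 94178839 to 94179138, lies mostly inside the annotated gene, so these counts are not from like stretches. At least 1 match was held by 40.4% of measured members with a promoter in the table, against 28.2% of all genes. The bases before the start of Mt2 (chr8:94172368-94172617, plus strand) are shown, and they end where the annotated gene begins. Of the Mt2 matches, 3 are in capitals, 2 on the forward and 1 on the reverse strand.
Mt2: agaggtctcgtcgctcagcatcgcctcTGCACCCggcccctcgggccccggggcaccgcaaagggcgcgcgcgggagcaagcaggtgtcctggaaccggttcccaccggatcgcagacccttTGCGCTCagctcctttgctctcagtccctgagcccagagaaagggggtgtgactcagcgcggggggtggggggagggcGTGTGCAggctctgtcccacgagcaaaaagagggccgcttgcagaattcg

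Of 6 measured metallothionein regulators and zinc transporters, 5 were lower in knockout hearts and 4 in wildtype hearts than in kidneys of the same genotype. Over all genes, 33% and 33.9% were lower. Among those lower, Slc39a8 and Slc39a10 were not detected in knockout hearts, where each was at least 1.03-fold lower. Slc30a2, a zinc transporter that no heart detected, was at least 6.18-fold lower in knockout hearts and at least 6.99-fold lower in wildtype hearts. Mtf1 differed by -0.24 in knockout and -0.28 in wildtype mice. No gene of these surrounding lists was called between genotypes or in the interaction. The smallest adjusted p among them was that of Abcc4, a transporter that can carry glutathione conjugates, at 0.53 between kidneys (limma adjusted p = 0.0551).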

How the data were processed

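The first deposited table holds a summary signal per probe, an intensity that the authors exported without normalization between arrays, with a detection p-value that the authors deposited beside each signal. How the detection p-values were computed is not stated in those sources. A further deposited table holds the authors' quantile normalized intensity on a linear scale, and the submitters' processing notes name lumi, with no version. Here the signals were quantile normalized over 12 arrays and taken to log2. Of 45281 probes, 19780 were kept, with detection (p below 0.01) required in any 1 array, and a gene took its kept probe of highest mean. The annotation gave a single symbol to 17073 kept probes, several to 9 and none to 2698, and only the first kind were named.

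One limma 3.58.1 model in R 4.3.3 held a mean for each group (8 residual and 3.91 prior degrees of freedom), was tested in both directions and used Benjamini and Hochberg's adjustment across kept probes. The number of arrays limits the precision. The fit was tested on simulated data. The level of the deleted gene is not reported here. The labels name 3 mice per genotype, and p-values measure the spread between arrays. Members, lists and tests were chosen with earlier results of these data known.

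Values of every array are given for the 5 members with the smallest unadjusted p in each genotype comparison and in the interaction, for up to 4 members of each family by adjusted p in wildtype hearts against wildtype kidneys, and for the genes of glutathione synthesis, the superoxide dismutases, Cat, Nqo1 and the metallothioneins. Alternatives were neqc (offset 16), centring alone, the authors' normalized values, other detection filters or none, fits of the compared groups alone, a replicate block, trended and robust moderation, the mean of a gene's kept probes, the criteria of the methods, and leaving out each array.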

Additional observations from a re-analysis of the deposited data

How the results depend on the processing

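Between hearts and kidneys, the count of members called stayed within 1.5 times its value under the alternatives tried, except under the criteria of the methods (false discovery rate 10% and 1.5-fold), by which 28 were called in knockout and 28 in wildtype mice. Leaving out 1 array gave 42 to 44 in knockout and 41 to 44 in wildtype mice. Between hearts of the genotypes and in the interaction, 0 members were called under every alternative run and with every array left out. Between kidneys, 7 were called with arrays only centred on their medians, 1 (Mt1, lower) with trended and robust moderation, 2 (Cat and Gsta2, higher) by the methods' criteria, and 0 to 3 when 1 array was left out. The shares of all genes called under these alternatives were not counted. Centring alone put the median of all genes at 0.13 log2 for knockout minus wildtype kidneys, and at -0.20 log2 in knockout and -0.12 log2 in wildtype mice for hearts minus kidneys. Same-numbered arrays did not deviate together (correlations from -0.20 to 0.21, above 0.1 in 4 of 18 pairs), and with the replicate block the counts were 0 in hearts, 0 in kidneys, 0 in the interaction, 43 in knockout and 44 in wildtype mice.

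Some directions between organs turned, and the cause was not tested. With arrays only centred, knockout hearts minus knockout kidneys was -0.3618 for Gstk1, -0.086 for Mt2, -0.5598 for Prdx4, -0.2868 for Txn2, -0.0086 for Txnl4a and -0.2402 for Txnrd2, and wildtype hearts minus wildtype kidneys was -0.3658 for Cat, -0.2542 for Prdx4, -0.0973 for Txn2 and -0.1016 for Txnrd2. With the mean of a gene's kept probes, Gsta1 was at 0.3157 in knockout and 0.2172 in wildtype mice and Cat at -0.1461 in wildtype mice. With KO/HT replicate 1 as the only knockout heart, assumed to vary like the other groups, Cat was at 0.094 and Prdx4 at -0.1842. With 1 array left out, wildtype Cat ran from -0.0748 to 0.2078 (turned without WT/HT 3 or WT/KID 2), wildtype Gstp1 from -0.0559 to 0.0507 (without WT/HT 3 or WT/KID 3) and knockout Prdx4 from -0.034 to 0.1175 (without KO/HT 2, KO/HT 3 or KO/KID 1).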
